A study of Mus musculus with 4 samples.

Results

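The genes described here encode 10 protein kinases of mitosis, from the Aurora, Polo-like, BUB and NEK families and the kinases TTK, MELK and PBK. They were chosen by name from a table of read counts, where all 10 of them were found among 23420 genes. The choice was made with earlier results of these data known. The shares of all genes given beside the kinases and their partners are therefore background and no test of the lists. RNA sequencing had been run on sorted pancreatic β-cells of mice in which most β-cells had been ablated with 10 days of doxycycline, so that the cells measured are those that were left. All mice carried DTA, the usual short name of the diphtheria toxin A chain. The 2 groups were labelled Bmal1KO and Bmal1+/- (heterozygous), with 2 libraries each, and Bmal1 is the common name of the clock gene Arntl. The promoter that drives the toxin, the kind of Bmal1 allele, the age of the mice and the number of mice behind a library were not stated in the sources used here. Separate mice are not named for the replicates either. The spread between libraries against which a p-value here sets the groups may therefore not be one between mice.

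Mitotic kinases are made late in the cell cycle, act at centrosomes, kinetochores and the spindle, and are destroyed as cells leave mitosis. Aurora A and PLK1 drive entry into mitosis and spindle assembly, Aurora B corrects faulty attachments of chromosomes, and TTK, BUB1 and BUBR1 run the spindle checkpoint, which holds cells until all chromosomes are attached. Adult β-cells divide rarely, so RNA of these genes is commonly read as a sign of the few cells in cycle, and β-cell loss is one of the settings in which more of them divide.

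The libraries held 31056116 to 38020488 counts, of which the 10 kinases took 1774 and 2544 in the KO-labelled libraries and 11491 and 12085 in the heterozygous-labelled ones. Arntl itself was at 75.9 and 67.7 CPM (counts scaled to a library total of 1000000) in the KO-labelled libraries and at 23.5 and 14.2 CPM in the heterozygous-labelled ones. RNA of the whole gene was thus not lower but higher under the KO label (log2 fold change 1.89, adjusted p = 0.0175 by edgeR). Nothing in the counts shows whether a part of the gene was missing, so they cannot decide whether the label holds. The groups are called by their labels. The 8 β-cell markers were detected in every library and summed to 219000 to 273000 CPM, nearly all of it Ins2, Ins1 and Iapp. KO replicate 1 stood apart in RNA of the sex-linked genes, with Xist at 8.68 CPM against 40.1 to 73.6 CPM and Ddx3y at 89.2 CPM against 11.5 to 24.5 CPM in the other libraries. The KO-labelled libraries thus differed in their mix of male and female cells. The labels were parted too, as both KO-labelled libraries were lower in Xist and higher in Ddx3y than either heterozygous-labelled one. KO replicate 2 had 40.1 CPM of Xist and 24.5 CPM of Ddx3y. Under the heterozygous label Xist was at 73.6 and 64.15 CPM and Ddx3y at 20.9 and 11.5 CPM. Neither difference passed (edgeR adjusted p = 0.233 and 0.176). The part of the sex mix in the kinase levels was not tested.

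All 10 kinases had a lower level in both KO-labelled libraries than in either heterozygous-labelled library. Of the 10, 6 fell (Aurka, Aurkb, Bub1b, Nek2, Melk and Pbk), 4 did not pass (Plk1, Bub1, Ttk and Plk4) and 0 rose by edgeR's quasi-likelihood test, with p-values adjusted by Benjamini-Hochberg over all 14649 genes tested and a threshold of 0.05. Over all those genes 1.34% were called lower and 1.20% higher. Both KO-labelled libraries were under the heterozygous-labelled pair in 20.0% of all genes tested. The median log2 fold change, KO label over heterozygous label, was -2.38 over the kinases and 0.02 over all genes tested, and all 10 kinases lay under -1, as did 4.65% of all genes tested. In RNA from a population of cells, fewer cells in cycle and less RNA per cycling cell cannot be told apart. Without heterozygous replicate 2 none of the 10 passed in edgeR's test (median -2.22, with 0.0518% of all genes called lower), and without KO replicate 2 all 10 passed (2.77% of all genes). All 10 also passed as lower by DESeq2 (3.79% of all genes) and in edgeR's test with no filter on low counts (2.11%).

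**Figure D1:**
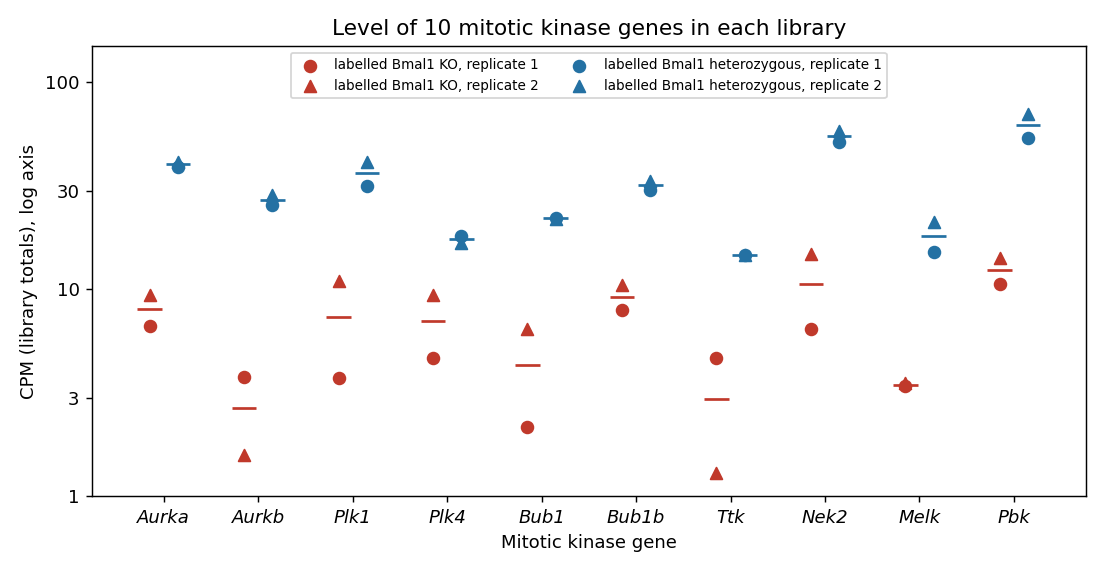
Level of each of the 10 kinase genes in each of the 4 libraries, in CPM of library totals on a log axis; circles are replicate 1, triangles replicate 2 and lines the group means. For each gene both red points (KO label) lie below both blue points (heterozygous label), and the red points lie far apart for Plk1, Bub1 and Ttk.

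Both Aurora kinase genes fell, and Aurkb had the lowest fold change of the 10. Aurka (chromosome 2, 172356190 to 172370535, GRCm38, minus strand), which encodes the kinase of centrosomes and spindle poles, was at 6.64 and 9.34 CPM in the KO-labelled libraries and at 39.1 and 41.4 CPM in the heterozygous-labelled ones. The log2 fold change was -2.38 (SE 0.24, adjusted p = 0.0129 by edgeR), which puts it 5.22 times higher under the heterozygous label. The 2 libraries of each label lay close to each other, and the gap between labels was far wider than either spread. Aurkb (chromosome 11, 69045647 to 69051664, plus strand) encodes the kinase of the chromosomal passenger complex, which sits at centromeres and later at the midzone of the dividing cell. It was at 3.78 and 1.58 CPM under the KO label and at 25.5 and 28.7 CPM under the heterozygous label, and the log2 fold change was -3.38 (SE 0.44, adjusted p = 0.0175 by edgeR). The KO replicates themselves differed, with KO replicate 2 the lower. The third gene of the family, Aurkc, which is known for its role in meiosis, had 0 counts in all 4 libraries, which allows a level of up to 0.0789 to 0.0966 CPM at a floor of 3 counts.

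Neither Polo-like kinase gene of the list passed. Plk1 (chromosome 7, 122159439 to 122169873, plus strand), which encodes the kinase that acts from mitotic entry to cytokinesis, was at 3.75 and 11.0 CPM under the KO label and at 31.7 and 41.4 CPM under the heterozygous label. Its log2 fold change of -2.37 was close to that of Aurka, but its SE was 0.47 and its adjusted p in edgeR's test was 0.0522. KO replicate 2 was well above KO replicate 1, and still below both heterozygous libraries. Plk4 (chromosome 3, 40800019 to 40816883, plus strand), which encodes the kinase that starts centriole duplication, was at 4.63 and 9.44 CPM against 18.1 and 16.7 CPM. It had the smallest difference of the 10, a log2 fold change of -1.36 (95% interval -2.22 to -0.50, not adjusted for the number of genes, edgeR adjusted p = 0.120). That interval does not overlap the one of Aurkb (-4.41 to -2.34), and the difference between these genes was not tested.

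Of the 3 spindle checkpoint kinase genes, Bub1b fell while Bub1 and Ttk did not pass. Bub1b (chromosome 2, 118598211 to 118641591, plus strand) encodes BUBR1, a part of the complex that blocks the anaphase-promoting complex. Its level was 7.98 and 10.5 CPM under the KO label and 30.3 and 33.5 CPM under the heterozygous label (log2 fold change -1.84, SE 0.24, edgeR adjusted p = 0.0175). The replicates of each label were near each other. Bub1 (chromosome 2, 127801122 to 127831865, minus strand), whose kinase marks centromeric histone H2A and recruits checkpoint proteins, was at 2.16 and 6.41 CPM against 22.2 and 21.9 CPM. Its log2 fold change was -2.42 with an SE of 0.48 (edgeR adjusted p = 0.0523). The heterozygous libraries were nearly equal, and the spread lay in the KO-labelled ones. Ttk (chromosome 9, 83834689 to 83872389, plus strand) encodes MPS1, the kinase that starts checkpoint signalling at unattached kinetochores. It was at 4.63 and 1.29 CPM against 14.7 and 14.6 CPM, with a log2 fold change of -2.34 and an SE of 0.58, the widest of the 10 (edgeR adjusted p = 0.0967). KO replicate 2 held 40 Ttk counts, the lowest count of any kinase in any library (95% Poisson interval 28.6 to 54.5, counting error only).

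The other 3 kinase genes all fell. Nek2 (chromosome 1, 191821444 to 191833050, plus strand), whose product loosens the link between centrosomes before mitosis, was at 6.40 and 14.8 CPM under the KO label and at 51.3 and 58.3 CPM under the heterozygous label (log2 fold change -2.43, SE 0.37, edgeR adjusted p = 0.0240). The groups were far apart although KO replicate 2 was higher than KO replicate 1. Melk (chromosome 4, 44300876 to 44364675, plus strand) encodes a kinase of the AMPK-related group that is abundant in dividing cells, and was at 3.41 and 3.51 CPM against 15.2 and 21.1 CPM (log2 fold change -2.44, SE 0.33, adjusted p = 0.0175 in edgeR). Here the KO libraries were nearly equal and the spread lay in the heterozygous ones. Pbk (chromosome 14, 65805837 to 65817822, plus strand), which encodes a kinase that is active in mitosis, had the highest CPM of the 10 under the heterozygous label, at 54.1 and 70.0 CPM, and was at 10.7 and 14.1 CPM under the KO label. Its log2 fold change was -2.38 (SE 0.24, edgeR adjusted p = 0.0129), nearly the same as that of Aurka. Exons of Nek2 and Plk1 overlap the unnamed gene models Gm38037 (298 bases, antisense) and Gm44985 (156 bases) in GENCODE M21, and without strand their reads cannot be told apart.

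Divided by exon length, Pbk led in every library, and the order of the other kinases differed between libraries. Levels per kilobase of exon (CPM per kb, exons of all GENCODE M21 transcripts merged) were highest for Pbk, at 34.6 ± 6.28 (SD, n = 2) under the heterozygous label and 6.91 ± 1.36 (SD, n = 2) under the KO label. By group means Plk1, Aurka and Nek2 followed, at 16.6, 15.9 and 12.1 CPM per kb under the heterozygous label and 3.36, 3.16 and 2.35 CPM per kb under the KO label. Under the KO label this order came from replicate 2, while in replicate 1 Aurka (2.62) and Bub1b (1.87) lay above Plk1 (1.70) and Nek2 (1.42 CPM per kb). Under the heterozygous label Plk1 and Aurka overlapped, and the steps from Bub1b (7.46) to Melk (6.10) and from Melk to Bub1 (5.05 CPM per kb) were no wider than the spread of Melk (SD 1.40). Aurkb was the fifth under the heterozygous label, at 9.20 ± 0.758 CPM per kb (SD, n = 2), and the ninth under the KO label, at 0.909 ± 0.528 CPM per kb (SD, n = 2). Plk4 went the other way, from the last place (2.54 ± 0.140) to the seventh (1.03 ± 0.495 CPM per kb), and its merged exons, 6855 bases, are the longest of the 10. Under the KO label Melk (1.17), Plk4 (1.03), Bub1 (0.984) and Aurkb (0.909 CPM per kb) did not differ beyond the spread of Plk4, Bub1 and Aurkb.

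The KO-labelled libraries differed from each other in which kinases they held. In KO replicate 2 Bub1 was 2.96 times and Plk1 2.94 times the level of KO replicate 1 (95% exact binomial intervals 2.25 to 3.94 and 2.38 to 3.64, counting error only). Ttk and Aurkb went the other way, at 0.278 times (0.191 to 0.396) and 0.418 times (0.294 to 0.586) the level of KO replicate 1. In all, 7 of the 10 kinases were above and 2 below in KO replicate 2 by these intervals, and the interval of Melk (0.783 to 1.35) held 1. Between the heterozygous libraries the ratios ran from 0.925 to 1.39, with 6 kinases above in replicate 2, 0 below and 4 whose interval held 1. These intervals compare libraries, not genotypes. Over all genes, too, replicates differed by far more than sampling noise (chi-square per degree of freedom 58.2 under the KO label and 38.4 under the heterozygous label). The share of all genes whose interval leaves out 1 was not counted, so the kinases are not set apart by these counts. KO replicate 2 also held more RNA of immune markers (7 listed, 6 of them in the table, summed level 542 CPM against 174 to 251 CPM in the other libraries). Their part in the kinase levels was not tested.

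**Figure D2:**
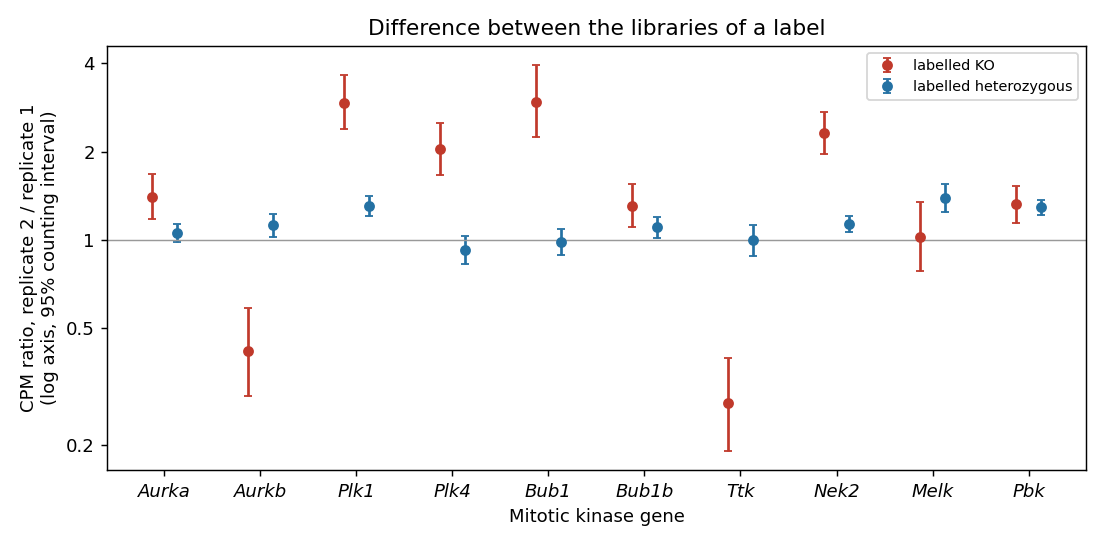
Ratio of the level in replicate 2 to that in replicate 1 for each kinase, within the KO label (red) and the heterozygous label (blue), on a log axis with 95% exact binomial intervals for counting error. The blue points lie between 0.925 and 1.39, and the red points between 0.278 (Ttk) and 2.96 (Bub1).

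As a share of the counts of all 10 kinases, Pbk and Aurka held steady while others varied between libraries. Pbk took 17.2% to 20.1% and Aurka 11.4% to 12.9% in every library. Aurkb took 6.99% and 1.93% under the KO label and 8.44% and 8.25% under the heterozygous label, and was the 1 kinase with a lower share in both KO-labelled libraries. Plk4 (8.57% and 11.5% against 5.99% and 4.82%) and Bub1b (14.8% and 12.8% against 10.0% and 9.63%) had a higher share in both, and the shares of the other 7 overlapped between the groups. Among these, Plk1 ran from 6.93% in KO replicate 1 to 13.4% in KO replicate 2, and Ttk from 8.57% to 1.57%. Shares of 1 total depend on each other, and the higher shares of Plk4 and Bub1b under the KO label go with lower levels. The shares were not tested, and how often such a split arises among other genes was not counted.

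**Figure D3:**
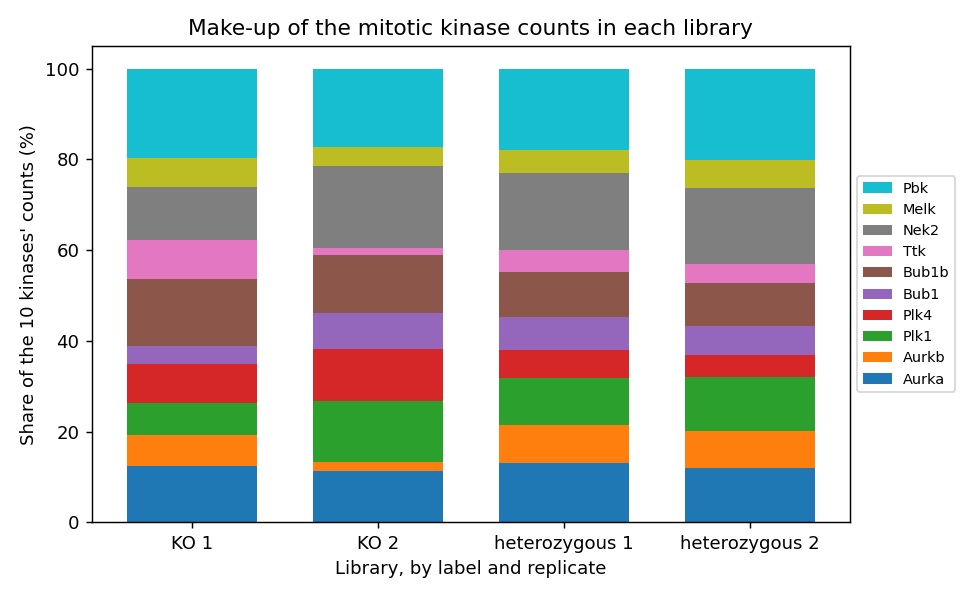
Share of each kinase in the counts of the 10 kinases, in percent, for the 4 libraries; each bar adds up to the whole. Ttk and Aurkb are narrow in KO replicate 2 (1.57% and 1.93%), where Nek2 (18.0%) and Plk1 (13.4%) are broad.

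Set against Mki67, the common marker of cells in cycle, the kinases together did not separate the groups. Mki67 was at 20.2 and 32.7 CPM under the KO label and at 100.3 and 148 CPM under the heterozygous label, and it fell (log2 fold change -2.29, SE 0.30, edgeR adjusted p = 0.0175). The summed counts of the 10 kinases were 2.67 and 2.50 times the Mki67 counts under the KO label and 3.01 and 2.34 times under the heterozygous label. These ratios overlap between the groups. Aurkb was lower relative to Mki67 in both KO-labelled libraries (0.187 and 0.0482 against 0.254 and 0.193), though KO replicate 1 was only just below heterozygous replicate 2. Bub1b (0.395 and 0.320 against 0.302 and 0.226) and Plk4 (0.229 and 0.288 against 0.180 and 0.113) were higher relative to Mki67, and the ratios of the other 7 overlapped. With 2 libraries a group these ratios were not tested. How often the ratios of other genes separate the groups was not counted, so no kinase is set apart by them.

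Partners of the kinases were mostly lower too. Of 35 genes listed as activators, partners, targets or antagonists, 11 fell, 24 did not pass and 0 rose by edgeR's test, against 1.34% of all genes called lower, and the median log2 fold change was -1.43 (0.02 over all genes tested). At an unadjusted p under 0.05, 22 of the 35 differed, against 16.9% of all genes tested. In the passenger complex that carries Aurora B, Birc5 (survivin) was at 4.33 and 9.53 CPM against 31.4 and 39.4 CPM (log2 fold change -2.41, edgeR adjusted p = 0.0265). Cdca8 (borealin) fell with a log2 fold change of -2.25 and Incenp, the scaffold and activator, with one of -1.24. All 3 members of that complex fell, and the fold change of Incenp was the nearest to 0. Tpx2, the spindle protein that activates Aurora A, was at 5.94 and 20.7 CPM against 79.4 and 76.0 CPM (-2.60, edgeR adjusted p = 0.0470). Bora, the cofactor with which Aurora A activates PLK1, was at 3.99 and 9.27 CPM against 6.52 and 9.52 CPM (-0.34, edgeR adjusted p = 0.786), and its groups overlapped.

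Checkpoint and centriole partners were split. Casc5 (KNL1), the kinetochore platform on which TTK, BUB1 and BUBR1 act, was at 2.41 and 3.86 CPM against 23.5 and 24.3 CPM (log2 fold change -2.98, edgeR adjusted p = 0.0129). Sgol1 (-2.81), the guardian of sister chromatid cohesion that BUB1 recruits, Cdc20 (-2.41), the activator of the anaphase-promoting complex that the checkpoint holds back, Kntc1 (-1.50) and Espl1 (-2.13), which encodes separase, also fell. The checkpoint genes Bub3 (-0.43, adjusted p = 0.193), Mad1l1 (-0.62, 0.215) and Mad2l1 (-1.53, 0.0716) did not pass in edgeR's test. For the centriole, Stil, the partner and target of PLK4, fell from 12.4 and 11.4 CPM under the heterozygous label to 2.38 and 0.837 CPM (-2.91, edgeR adjusted p = 0.0429). Cep152 (-0.55), Cep192 (-0.21), Cenpj (-0.34) and Sass6 (-0.60) did not pass. Ube2c (-2.57), the ubiquitin-conjugating enzyme of the anaphase-promoting complex, fell. Without heterozygous replicate 2, 0 of the 35 partners passed, and without heterozygous replicate 1, 6 passed (0.612% of all genes were then called lower).

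No relative of the kinases outside the list passed. Of 14 other genes of the Aurora, Polo-like and NEK families, 13 were tested and 0 passed in either direction by edgeR's test, while 3 of the 13 had an unadjusted p under 0.05 (Plk2, Plk5 and Nek6), against 16.9% of all genes tested. DESeq2 called 1 of them and limma-voom 0. Their median log2 fold change was 0.23, with 5 below and 8 above 0. Plk2, a Polo-like kinase gene that is induced by stress and neuronal activity, was at 112 and 355 CPM under the KO label and at 55.4 and 46.9 CPM under the heterozygous label. Its log2 fold change was 2.14 (SE 0.46, edgeR adjusted p = 0.0677), opposite in sign to that of Plk1 and Plk4. Both KO libraries lay above both heterozygous ones, with KO replicate 2 far above the rest, and Plk2 passed as higher without KO replicate 1 (2.70, adjusted p = 0.00215 in edgeR) and without KO replicate 2 (1.10, 0.0149). Plk3 was at 35.7 and 76.1 CPM against 68.2 and 67.2 CPM, and passed as lower without KO replicate 2 (-0.95, edgeR adjusted p = 0.0343). Nek6 (-0.82) and Nek7 (0.33), whose products act in mitosis downstream of NEK9, had edgeR adjusted p-values of 0.169 and 0.342, and Nek10 (1.55) and Plk5 (1.34) had ones of 0.352 and 0.260.

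**Figure D4:**
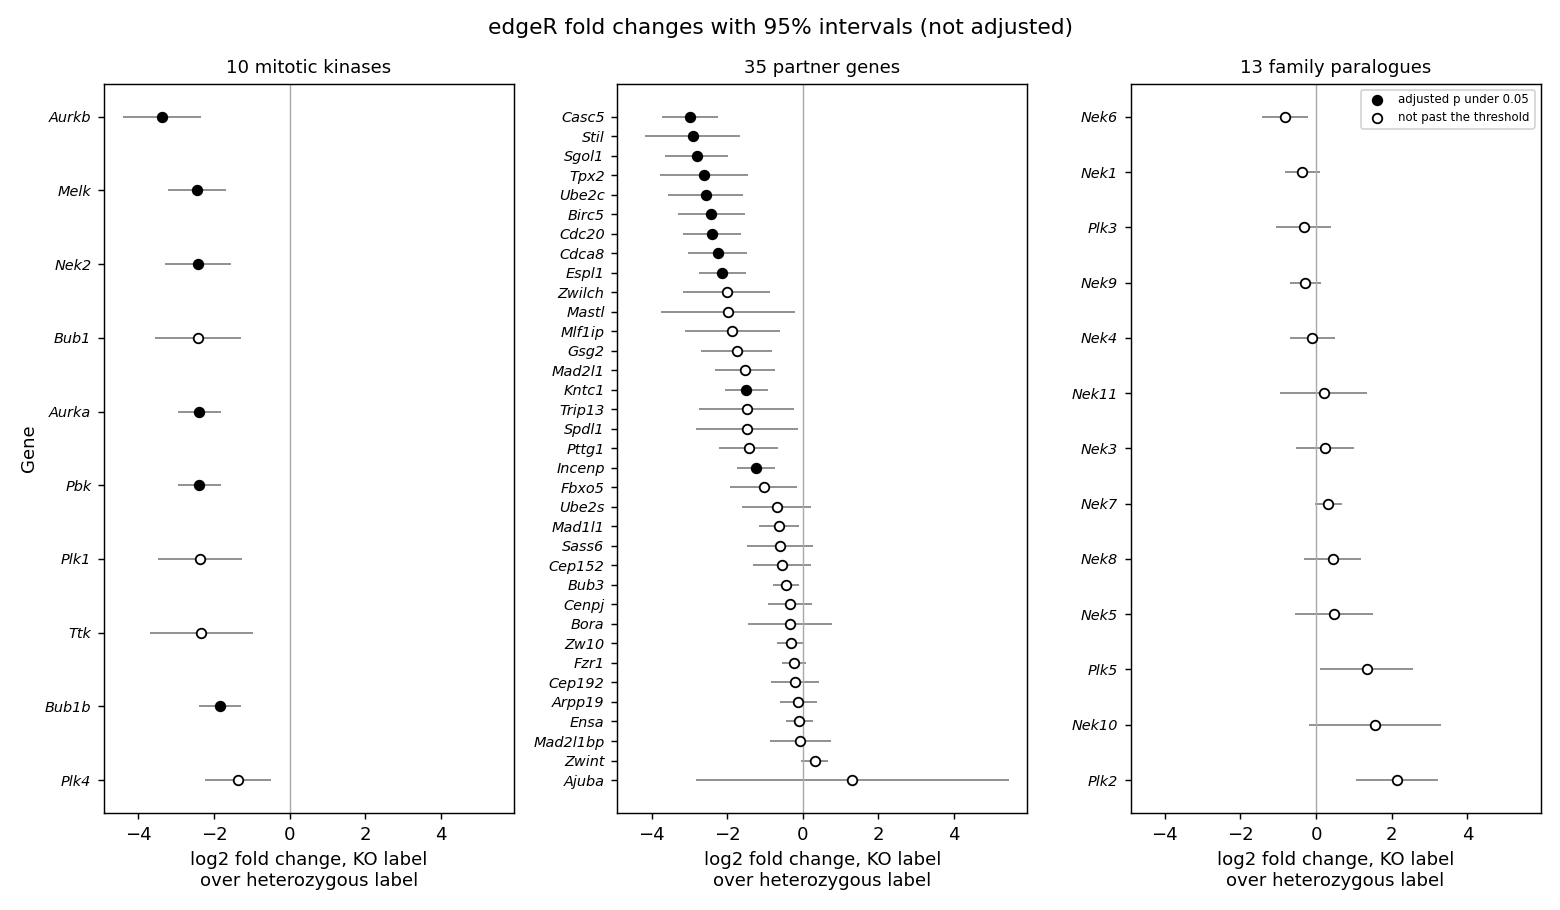
Log2 fold changes (KO label over heterozygous label) from edgeR for the 10 kinases, 35 partner genes and 13 tested paralogues, with 95% intervals not adjusted for the number of genes; filled points passed the adjusted threshold of 0.05. All 10 kinases and 33 of the 35 partners lie below 0, and the paralogues lie on both sides, with Plk2 at 2.14.

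Over the 4 libraries, the genes most like the kinases were Foxm1, Smc2, Kif18b, Arhgef39 and Cdca3. Likeness was measured as the root mean square distance, in log2 CPM centred on each gene's own mean, to the median profile of the 10 kinases, among 8897 other genes at a mean of 10 CPM or more. The 5 genes lay 0.11 to 0.13 log2 units from that profile. Among the kinases Aurka (0.10) and Pbk (0.10) were the nearest to their own median and Aurkb (0.84) and Ttk (0.81) the farthest. Foxm1 was at 7.74 and 12.1 CPM under the KO label and at 45.9 and 48.1 CPM under the heterozygous label. With 4 libraries this measure mostly reads the difference between the labels, so it is a description only.

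Promoter sequences are shown because the kinases were lower together. Promoters of many late cell cycle genes hold CCAAT boxes, which NF-Y binds, and a CHR element (cell cycle genes homology region), which the DREAM complex binds in resting cells and complexes with MYBL2 or FOXM1 bind in dividing cells. The E-box CACGTG is the element that BMAL1 with CLOCK binds. The RefSeq table of promoters (GRCm38.p6, 250 bases before to 50 after the start of transcription) had 8 of the 10 kinases, all but Aurkb and Pbk. Searched on both strands, CCAAT was in 6 of these 8 promoters and in 37.4% of all 32851 promoters of the table, and 2 or more matches were in 4 of the 8 (11.7% of all). A CHR in the form TTTGAA or TTCGAA was in 5 of the 8 and in 19.2% of all. CACGTG was in 1 of the 8, that of Ttk, and in 7.15% of all. The Plk4 and Melk windows had no match to any of these letters.

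The stretches below hold most of the CCAAT matches, the CHR matches after the start and the E-box match, with the matches in capitals (ATTGG and TTCAAA are CCAAT and TTTGAA read on the other strand). They are from RefSeq, GRCm38.p6, each 5′ to 3′ on the strand of its gene. Before and after refer to the RefSeq start, which differs from the GENCODE start given above for Aurka, Plk1, Bub1 and Nek2. By GENCODE nearly all of the Nek2 stretch lies within the gene, and the CHR match of Aurka runs across the start.
Aurka, 60 to 1 bases before the start (chr2:172370571-172370630, minus): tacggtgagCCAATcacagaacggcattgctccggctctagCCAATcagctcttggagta
Aurka, 26 to 45 bases after the start (chr2:172370526-172370545, minus): gagaaccTTTGAAttgtaac
Plk1, 40 to 1 bases before the start (chr7:122159395-122159434, plus): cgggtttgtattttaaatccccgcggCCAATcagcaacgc
Plk1, 24 to 43 bases after the start (chr7:122159458-122159477, plus): cgccgcgTTTGAAttcgggg
Bub1, 75 to 30 bases before the start (chr2:127831889-127831934, minus): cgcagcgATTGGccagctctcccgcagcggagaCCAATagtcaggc
Bub1, 9 to 28 bases after the start (chr2:127831832-127831851, minus): ggggaaTTCGAAtcgccggc
Bub1b, 31 to 50 bases after the start (chr2:118598241-118598260, plus): agacgttaaaTTTGAAactt
Ttk, 70 to 16 bases before the start (chr9:83834619-83834673, plus): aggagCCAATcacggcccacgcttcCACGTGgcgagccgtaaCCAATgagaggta
Ttk, 2 to 21 bases after the start (chr9:83834690-83834709, plus): ggaaatTTCAAAcgtgtttc
Nek2, 30 to 1 bases before the start (chr1:191821443-191821472, plus): tcagCCAATcagagttgagatgcaccttcg
In Aurka, Plk1, Bub1 and Ttk the CHR match lay within 33 bases after the RefSeq start and a CCAAT match within 42 bases before it, and in Ttk the E-box letters lay between 2 CCAAT matches. The log2 fold changes of these 4 genes, in that order, were -2.38, -2.37, -2.42 and -2.34, though only Aurka passed. Those of Melk and Plk4, with no match in the window, were -2.44 and -1.36, and only Melk passed. Bub1b, at -1.84, had CHR matches 41 bases after and 188 bases before the start and a CCAAT match 113 bases before it. Nek2, at -2.43, had CCAAT matches and no CHR match, and both of these genes passed. The part of the matches in the levels was not tested. A match of letters is a description of the sequence, and binding was not measured.

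**Figure D5:**
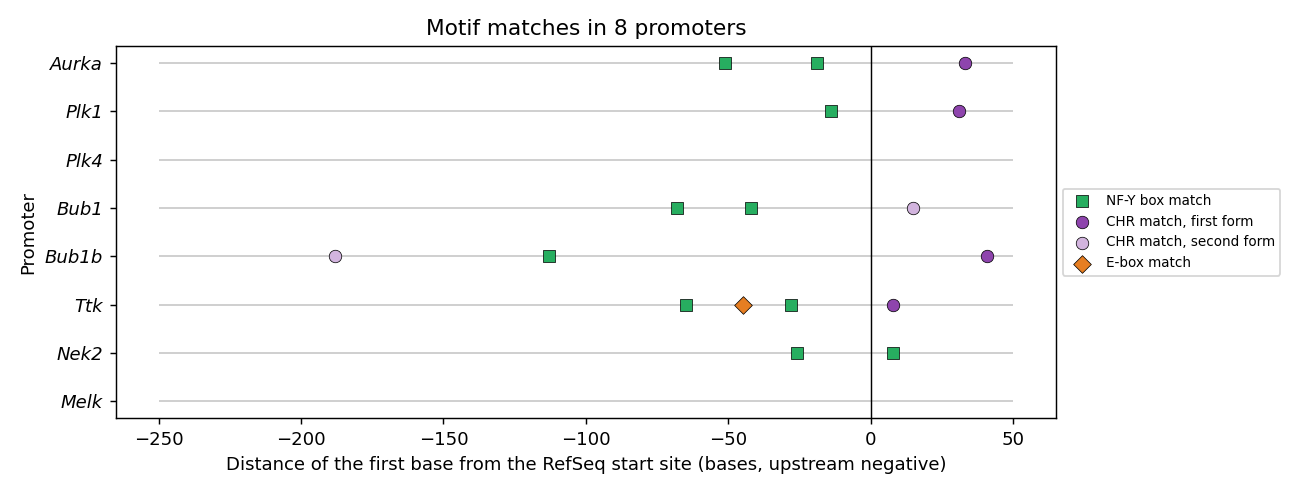
Matches to the NF-Y box, to the 2 forms of the CHR and to the E-box in the 8 kinase promoters of the RefSeq table, by distance from the start of transcription in bases. Most matches lie within 70 bases of the start, the E-box match in Ttk at 45 bases before it, and Plk4 and Melk have none.

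Marker genes of β-cells and of other cells also varied between these libraries. Of the 8 β-cell markers, 6 had a negative log2 fold change, and Ucn3, which encodes urocortin 3, also fell, from 275 and 299 CPM under the heterozygous label to 53.0 and 91.9 CPM under the KO label (log2 fold change -2.04, adjusted p = 0.0160 by edgeR). Summed over 6 stromal markers the level was 126 and 362 CPM under the KO label and 58.8 and 16.1 CPM under the heterozygous label, with Pdgfrb at 0.975, 0.0644, 0.105 and 0 CPM. The 6 acinar markers summed to 134 and 57.0 CPM against 37.3 and 9.26 CPM, and the 5 endothelial markers to 17.2 and 5.09 CPM against 1.42 and 2.16 CPM, with Cdh5 at 0 in KO replicate 2 and heterozygous replicate 2. Of the 13 tested markers of these 3 lists, Col1a2 alone passed, and Dcn, Cpa1, Prss2 and Kdr overlapped between the groups. Of the immune markers Cd3e was at 0.213, 0.161, 0.132 and 0 CPM, and Ptprc, the general marker of white blood cells, was at 5.24 and 35.1 CPM against 8.0 and 7.56 CPM. The 5 duct markers summed to 512 and 521 CPM against 697 and 736 CPM. Most of that sum was Krt7, while Sox9 was at 6.43 and 6.18 CPM against 1.24 and 2.36 CPM, and 3 of the 4 tested duct markers had a positive log2 fold change. The 4 α-cell markers summed to 1683 and 3459 CPM against 1388 and 1238 CPM. The part of these marker differences in the kinase levels was not tested.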

How the data were processed

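RNA of 4 libraries of sorted mouse β-cells was measured with a low-input SMART-Seq kit, per the labels' protocols. The authors deposited raw read counts per gene symbol, and these counts were used for every value. A second, scaled table was not used here. STAR, edgeR and mm10 appear in the submitters' processing notes without roles; for the counting tool, strand setting and annotation, the sources used here give nothing. Levels are CPM of library totals. A filter on low counts (filterByExpr, at least 10 counts in enough libraries and 15 in total) kept all 10 kinases. After TMM scaling, edgeR 4.0.16 gave the test (glmQLFit, then glmQLFTest, 2-sided, group as the only term, 2 residual and 5.12 prior degrees of freedom) in R 4.3.3. An SE is the log2 fold change over the square root of F, and 95% intervals use the t distribution with the summed degrees of freedom. The procedure was also run on counts simulated with known fold changes. That run checked the direction and median size of those changes, and is no check of the calls made here. Alternatives were other scalings and filters, DESeq2 1.42.0, limma-voom (limma 3.58.1), a replicate block and leaving out each library. The text names all 10 kinases, of the partner and paralogue lists the 8 and 5 with the smallest p plus others that complete a complex or a family, chosen after their values were seen, and the 5 genes nearest in profile. The kinases and lists were chosen with earlier results of these data known. Replicates of a label differed by far more than sampling noise (chi-square per degree of freedom 58.2 and 38.4). Coordinates and exon lengths are from GENCODE M21 (GRCm38).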

Additional observations from a re-analysis of the deposited data

How the results depend on the processing

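All 10 kinases kept a negative log2 fold change under every one of the 12 alternatives run, from -4.20 to -0.98. The number called lower, 6 in edgeR's main test, was 10 with no filter and 10 by DESeq2, and it ranged from 0 to 10 when 1 library was left out, with 0 without heterozygous replicate 2, where the adjusted p-values ran from 0.0526 (Pbk) to 0.394 (Plk4). Plk1 and Bub1, just above the threshold, passed with upper quartile scaling and with library totals alone. Partners called lower, 11 in the main test, ranged from 0 to 15 when 1 library was left out and from 11 to 16 (DESeq2) under the other alternatives. Paralogues called lower ranged from 0 to 1 when 1 library was left out, and those called higher from 0 to 1; 1 (Plk2) was called higher with no filter, at a mean of 5 CPM or more, by DESeq2 and with the replicate block. Over all genes, 196 were called lower and 176 higher. The counts were 378 and 430 with no filter, 562 and 624 by DESeq2, 234 and 266 at a mean of 5 CPM or more, and 8 to 422 lower and 17 to 404 higher with 1 library left out. The cause of these differences was not tested. Deviations between replicates 1 and 2 were nearly uncorrelated between the labels (correlation across genes -0.018). With 2 libraries a label this cannot show whether the samples were paired. With the replicate block 9 kinases and 14 partners were called lower, 0 of either higher, and 278 genes lower and 313 higher in all. Where 1 library was left out, the lone library of its group was assumed to vary like the others. The lowest kinase count was 40 (95% Poisson interval 28.6 to 54.5). Between replicates the counting interval of the ratio held 1 for 1 kinase under the KO label and 4 under the heterozygous label. The share over all genes was not counted.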
